A study of Mus musculus with 12 samples.

Results

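The comparison is between invariant natural killer T (iNKT) cells of stage 1 from Bcl6KO mice and from WT mice. It rests on 6 RNA libraries of the 12 in the series, chosen by their titles: 3 labelled Bcl6KO ST1 and 3 labelled WT ST1. All came from untreated C57Bl/6J mice of 4 to 5 weeks, and the thymi of 4 to 7 mice were pooled. The Bcl6KO mice are given in the design as CDCre;Bcl6F/F, that is, a Cre transgene with floxed Bcl6 alleles, and the controls as WT. The cells that express this Cre, the exons it removes and the littermate status of the controls are not given in the labels. Stage 1 was sorted as positive for tetramer and TCRb and negative for CD24 and CD44, and stage 0 as the CD24-positive counterpart. The 6 stage 0 libraries (3 WT, 3 Bcl6KO) enter the estimate of the spread and one test below. Chromatin accessibility data were not analysed here.

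BCL6 is a zinc finger repressor that recruits corepressor complexes through its BTB domain. It is best known for directing germinal centre B cells and T follicular helper (Tfh) cells, and it represses its own gene. iNKT cells arise in the thymus from CD4 CD8 double-positive thymocytes that recognise lipids on CD1d. They pass through a CD24-positive step and then, under PLZF (encoded by Zbtb16), mature into cells that make interferon gamma (NKT1), interleukin 4 (NKT2) or interleukin 17 (NKT17). Stage 1 lies between these steps.

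Stage 1 cells labelled Bcl6KO had more RNA of Arpp21, Itm2a, Bach2, Tnfsf8, Cd2, Bcl2 and Lef1 than WT cells. These genes have different roles and come from different lists, so no theme is drawn from them. They had less RNA of Ikzf3 and of genes associated with NKT1, NKT17 and gamma-delta T cells, such as Klrk1, Il1r1 and Sox13. These are differences between non-overlapping libraries. No gene passed the adjusted test, so each is given as a value and not as a call. Of 15704 genes tested, 0 were called higher (0%) and 0 lower (0%) by edgeR's quasi-likelihood test with Benjamini-Hochberg adjustment at 0.05, where the lowest adjusted p was 0.115. An unadjusted p under 0.05 was found for 404 genes (2.57%), 227 higher and 177 lower in Bcl6KO. DESeq2 on the same counts called 20 genes (16 higher, 4 lower) and limma's voom with sample quality weights called 5, all higher. Below, called refers to edgeR's test unless another tool is named.

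All 3 Bcl6KO libraries lay above all 3 WT libraries for 922 genes (5.87% of those tested), and all 3 lay below for 1168 (7.44%). The median log2 fold change over all tested genes was 0.02. Levels below are CPM, counts relative to a library's size after TMM scaling (edgeR's trimmed mean of M-values). CPM does not correct for gene length, so levels are compared between libraries and not between genes. Values are listed for libraries 1, 2 and 3 of a group in that order.

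**Figure D1:**
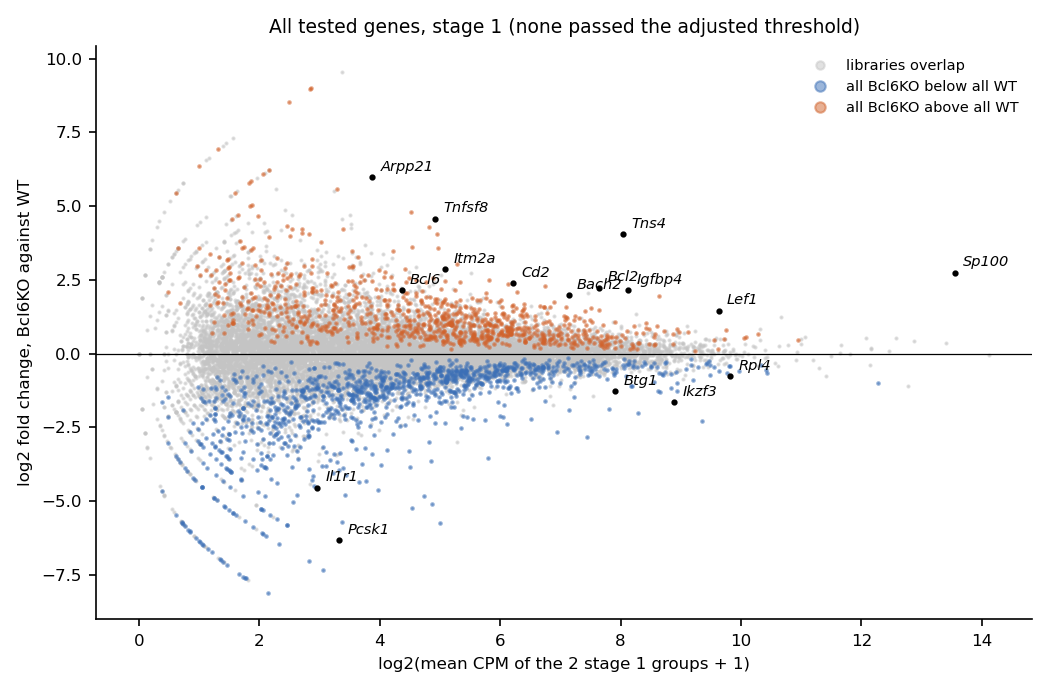
Log2 fold change of Bcl6KO against WT at stage 1 (vertical axis) against the mean level of both groups as log2(CPM + 1) (horizontal axis), with 1 point for each of 15704 tested genes. Orange and blue points are the 922 and 1168 genes whose libraries did not overlap between the genotypes, grey points are the others, and black points carry gene names. Arpp21, Tnfsf8 and Tns4 stand above the bulk of genes of their level, and Pcsk1 and Il1r1 below it.

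Bcl6 (ENSMUSG00000022508, mm10 chromosome 16, 23965052 to 23988852, minus strand) was counted at 8.77, 4.15 and 8.61 CPM in WT and at 14.7, 56.0 and 25.2 CPM in Bcl6KO. Each Bcl6KO library thus lay above each WT library, with library 2 the highest. The log2 fold change was 2.15 (SE 0.47, edgeR adjusted p = 0.624, DESeq2 adjusted p = 0.025), and 1.47 without Bcl6KO library 2. Reads from all exons were summed and the labels do not name the deleted ones, so the level is no check of the deletion or the genotype. At stage 0 the gene stood at 217 to 373 CPM in WT and 511 to 657 CPM in Bcl6KO.

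Promoters of the leading genes were searched for TTCNNNGAA, the core shared by BCL6 and STAT binding motifs, on both strands in the 250 bases before each RefSeq start (GRCm38.p6, the mm10 assembly). It occurred in 7.02% of 32851 windows and at 8.13% of 27025 genes. Of 28 genes, the leading ones together with Zbtb16, Cd24a and Cd44, 20 were in the table. A match was found for 4: Bach2, Bcl6, Rpl4 and Tspan9. The stricter TTCCNNGAA, a subset of the matches, occurred at 4.74% of genes and at 2 of the 20, Bcl6 and Rpl4. Windows of Bcl6 and Bach2 are printed because the RNA of both was higher in every Bcl6KO library. Rpl4 and Tspan9, which also had a match, were lower in every Bcl6KO library, and their windows are not printed. Capitals mark the match, the strand is that of the gene, and each window ends at the base before the start.
Bcl6, main start, chr16:23988853-23989102, minus strand: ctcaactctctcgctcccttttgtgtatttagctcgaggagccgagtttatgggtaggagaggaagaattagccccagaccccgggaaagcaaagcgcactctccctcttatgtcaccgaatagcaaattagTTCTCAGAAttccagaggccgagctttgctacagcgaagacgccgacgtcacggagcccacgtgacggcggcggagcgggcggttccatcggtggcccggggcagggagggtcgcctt
Bcl6, internal start, chr16:23981284-23981533, minus strand: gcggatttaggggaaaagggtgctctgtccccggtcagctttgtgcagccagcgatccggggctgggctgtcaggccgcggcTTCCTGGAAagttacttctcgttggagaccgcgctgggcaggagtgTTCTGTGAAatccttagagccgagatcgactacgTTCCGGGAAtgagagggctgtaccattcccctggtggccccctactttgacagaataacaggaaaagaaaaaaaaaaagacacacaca
Bach2, internal start, chr4:32417185-32417434, plus strand: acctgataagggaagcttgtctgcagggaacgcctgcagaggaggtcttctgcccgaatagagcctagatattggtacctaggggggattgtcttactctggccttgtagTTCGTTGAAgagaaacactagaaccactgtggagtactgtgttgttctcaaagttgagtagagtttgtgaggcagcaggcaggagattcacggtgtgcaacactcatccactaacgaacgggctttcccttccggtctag
The match of the main Bcl6 start begins 118 bases before it. The internal Bcl6 start has 3 matches, which begin 168, 122 and 88 bases before it and of which 2 are of the stricter kind. The Bach2 match begins 140 bases before an internal start and is not of the stricter kind. No window before the first base of the Bach2 gene (32238804) was searched. A match describes these letters and shows no binding.

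The lowest adjusted p was shared by 3 genes. Arpp21 (chromosome 9, 112065091 to 112235938), which encodes a cyclic AMP-regulated phosphoprotein abundant in immature thymocytes, was at 0.797, 0.197 and 0.205 CPM in WT and at 15.1, 49.7 and 15.8 CPM in Bcl6KO. It was near absent from WT, where 3 counts correspond to about 0.602 CPM, and present in every Bcl6KO library (log2 fold change 5.98, SE 0.92, edgeR adjusted p = 0.115, and 5.18 without Bcl6KO library 2). Itm2a, an X-linked gene for a membrane protein, is induced by positive selection. It was at 6.18, 10.1 and 7.38 CPM in WT against 44.9, 88.2 and 40.7 CPM. The groups were far apart relative to their spread (2.88, SE 0.45, adjusted p = 0.115). Bach2, a repressor of effector programs in lymphocytes, stood at 58.0, 45 and 67.3 CPM in WT and at 229, 227 and 212 CPM in Bcl6KO. Its 3 Bcl6KO libraries were nearly alike, and its log2 fold change of 1.97 (SE 0.31, adjusted p = 0.115) was 1.96 without Bcl6KO library 2.

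Other genes higher in every Bcl6KO library varied more among those libraries. Tnfsf8, the ligand of CD30, was at 4.38, 1.97 and 0.615 CPM in WT and 20.5, 116 and 31.5 CPM in Bcl6KO (4.57, SE 0.79, edgeR adjusted p = 0.214). Cd2, an adhesion receptor, was at 30.5, 10.9 and 29.1 CPM against 90.2, 166 and 110 CPM (2.38, SE 0.42, adjusted p = 0.214). Library 2 was the highest of the Bcl6KO libraries for both and the lowest or middle of the WT libraries. Tns4, a tensin that links integrins to the cytoskeleton, was at 25.7, 12.8 and 51.9 CPM against 191, 866 and 433 CPM (4.04, SE 0.77, adjusted p = 0.36). Bcl2, the survival factor, was at 77.9, 43.6 and 87.0 CPM against 178, 460.1 and 343 CPM (2.23, SE 0.47, adjusted p = 0.624). Without Bcl6KO library 2 the log2 fold changes were 3.46 for Tnfsf8, 2.09 for Cd2, 3.37 for Tns4 and 1.90 for Bcl2. The genes were chosen for libraries that do not overlap, so leaving out 1 library bears on the size only. It could hardly change the direction.

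The remaining leading genes in this direction were Hectd2 (2.30), a ubiquitin ligase gene with 20.2% of its exonic bases shared with another gene, Ptgfrn (2.49), Cytip (1.95), a regulator of adhesion, and Igfbp4 (2.14), an insulin-like growth factor binding protein. Igfbp4 was at 105, 26.7 and 176 CPM in WT and at 388, 473 and 496 CPM in Bcl6KO, with no overlap (SE 0.49, edgeR adjusted p = 0.812). Lef1, the HMG-box factor of Wnt signalling, was at 413, 248 and 607 CPM in WT and 755, 1542 and 1176 CPM in Bcl6KO (1.45, SE 0.36, adjusted p = 1). Its exons overlap another gene over 13.7% of their length.

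**Figure D2:**
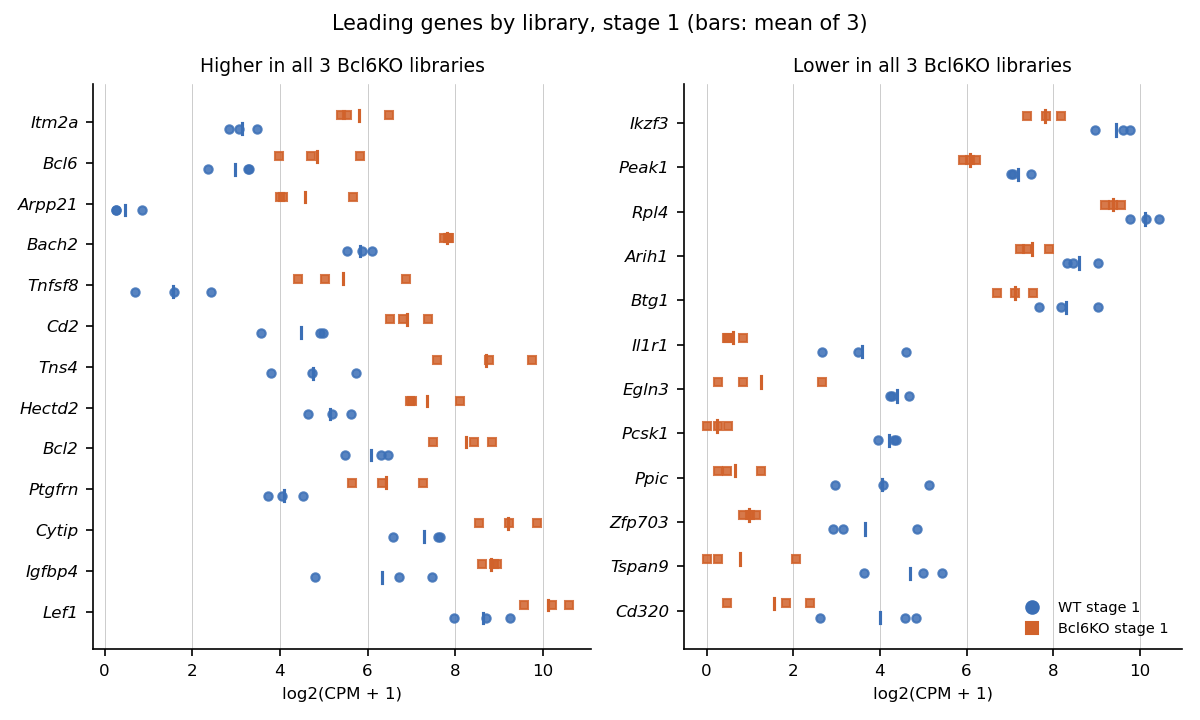
Levels as log2(CPM + 1) of the leading genes in the 3 WT (blue circles) and 3 Bcl6KO (orange squares) stage 1 libraries, with a bar at each mean. The genotypes do not overlap for any gene shown, which is how the genes were chosen, and the Bcl6KO values of Bach2 lie close together whereas those of Tnfsf8 and Tns4 are spread.

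Ikzf3, which encodes the lymphoid zinc finger factor Aiolos, led the genes that were lower. It was at 497, 779 and 871 CPM in WT and at 225, 168 and 289 CPM in Bcl6KO. Every Bcl6KO library was thus below every WT library (log2 fold change -1.65, SE 0.34, edgeR adjusted p = 0.501, DESeq2 adjusted p = 0.0417). Btg1, an antiproliferative gene, was at 202, 526 and 289 CPM against 184, 137 and 103 CPM (-1.26, SE 0.38, adjusted p = 1). The gap between the groups was narrow for Btg1, and WT library 2 stood above the others. Peak1 (-1.14), a pseudokinase gene, Arih1 (-1.10), a ubiquitin ligase gene, and Rpl4 (-0.77), a protein of the large ribosomal subunit, were the other leading genes above 50 CPM in both groups.

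Several lower genes were close to or under the floor in Bcl6KO. Il1r1, the receptor of interleukin 1, was at 5.38, 23.3 and 10.3 CPM in WT and at 0.795, 0.398 and 0.399 CPM in Bcl6KO (-4.55, SE 1.38, edgeR adjusted p = 1), and the log2 fold change was -3.83 without WT library 2. Pcsk1, a prohormone convertase gene, was at 14.5, 19.2 and 19.7 CPM against 0.199, 0 and 0.399 CPM (-6.31, SE 2.05, adjusted p = 1). With 2 or fewer counts in each Bcl6KO library, the size of this difference is uncertain. Egln3 (-3.24), Ppic (-4.78), Zfp703 (-3.80), Tspan9 (-4.61) and Cd320 (-2.94) completed this set. Their standard errors lay between 0.99 and 1.55.

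The libraries overlapped for the lineage factor and the gate markers. Zbtb16 was at 409, 581 and 641 CPM in WT and at 322, 305 and 440 CPM in Bcl6KO. The log2 fold change was -0.61 (SE 0.58, edgeR adjusted p = 1). Cd24a, whose protein the gate excludes, was at 2.99, 0.79 and 13.7 CPM against 1.39, 1.79 and 0.799 CPM (-2.12, SE 0.77, adjusted p = 1), and its log2 fold change was -0.51 without WT library 3. Cd44 was at 26.9, 3.36 and 14.8 CPM against 21.7, 6.56 and 21.0 CPM (0.13, SE 1.19), with a sign that depended on which library was left out. The rearranged iNKT alpha chain segment Trav11 was at 255, 285 and 240.4 CPM in WT and at 231, 305 and 206 CPM in Bcl6KO, with overlap.

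NKT1 effector genes were on the whole lower in Bcl6KO. Of 25 genes listed 18 were tested, 0 were called, 9 were lower without overlap and 0 higher, and the median log2 fold change was -1.25. Over all tested genes 7.44% were lower without overlap. Klrk1, which encodes the activating receptor NKG2D, was at 9.56, 148 and 25.8 CPM in WT and at 3.18, 0.199 and 0 CPM in Bcl6KO (-5.73, SE 2.05, edgeR adjusted p = 1). Its fold change was -3.95 without WT library 2, the highest of the WT libraries. Fasl, the death ligand, was at 9.96, 5.33 and 3.28 CPM against 0.199, 0.199 and 0.799 CPM (-3.88, SE 1.40). Il18r1, the interleukin 18 receptor chain, was at 464, 605 and 823 CPM against 221, 281 and 337 CPM (-1.17, SE 1.05). All 3 genes were separated between the genotypes, at very different distances. Klrb1c, which encodes NK1.1, Klrd1, Cd160, Slamf7, Il18rap and Ctsw were also lower in every Bcl6KO library, with log2 fold changes from -4.11 to -2.10 for all but Ctsw, at -1.0. Tbx21, the NKT1 master factor T-bet, overlapped, at 19.7, 7.11 and 8.20 CPM in WT and 9.14, 1.99 and 9.18 CPM in Bcl6KO. The 4 tested members with a positive log2 fold change also overlapped: Gzmb (2.30), Gzma (1.20), Il12rb2 (0.42) and Il2rb (0.37). Ifng, a listed gene too low to test, had 1, 5 and 1 counts in WT and 7, 0 and 56 in Bcl6KO. These genes were named after their values were seen. In bulk RNA, fewer cells of a type and less RNA per cell cannot be told apart.

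NKT17 effector genes had a median of -1.87, with 6 of 13 tested members (21 listed) lower without overlap, 0 higher and 0 called. The lower members made up 46.2%, beside 7.44% of all tested genes. Itgae, the integrin chain CD103, was at 118, 305 and 213 CPM in WT and at 41.7, 5.37 and 52.9 CPM in Bcl6KO (-2.67, SE 1.32, edgeR adjusted p = 1). Maf, which drives NKT17 and Tfh programs, was at 187, 353 and 506 CPM against 82.4, 61.8 and 142 CPM (-1.87, SE 0.95). Both were lower in all 3 Bcl6KO libraries. Tmem176b (-6.46), Blk (-3.29), Rora (-0.71) and Il1r1 were lower likewise. The 3 tested members with a positive log2 fold change overlapped: Il17re (0.55), Cxcr6 (0.26) and Ramp1 (0.24). Il17a had at most 1 count in any of the 6 libraries. Il17f, also listed and too low to test, had 1, 0 and 0 counts in WT and 41, 0 and 1 in Bcl6KO. Il17re, Cxcr6, Ramp1 and Il17f were named after their values were seen.

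Gamma-delta T cell markers, 2 of which (Maf and Blk) are also on the NKT17 list, had a median of -1.87. Of 11 tested members 7 were lower without overlap (63.6%, beside 7.44% of all tested genes) and 0 higher. Tcrg-C2, a constant segment of the T cell receptor gamma chain, was at 535, 1734 and 969 CPM in WT and at 209, 224 and 237 CPM in Bcl6KO (-2.27, SE 1.0, edgeR adjusted p = 1). Sox13, a transcription factor of gamma-delta T cells, was at 51.2, 136 and 113 CPM against 13.1, 5.57 and 7.19 CPM (-3.53, SE 1.71). The scavenger receptor gene 5830411N06Rik was at 34.5, 83.5 and 36.5 CPM against 4.97, 4.57 and 2.80 CPM (-3.64, SE 1.61). For all 3 the Bcl6KO libraries were close together and below WT. Reads of near-identical gamma chain segments may be shared between them. Trdc, the delta chain constant gene that defines gamma-delta cells, was at 0.399, 0.197 and 0.205 CPM in WT, under the floor, and at 0.795, 0.199 and 17.6 CPM in Bcl6KO. The delta chain was thus near 0 in the WT libraries in which the other markers were higher.

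**Figure D3:**
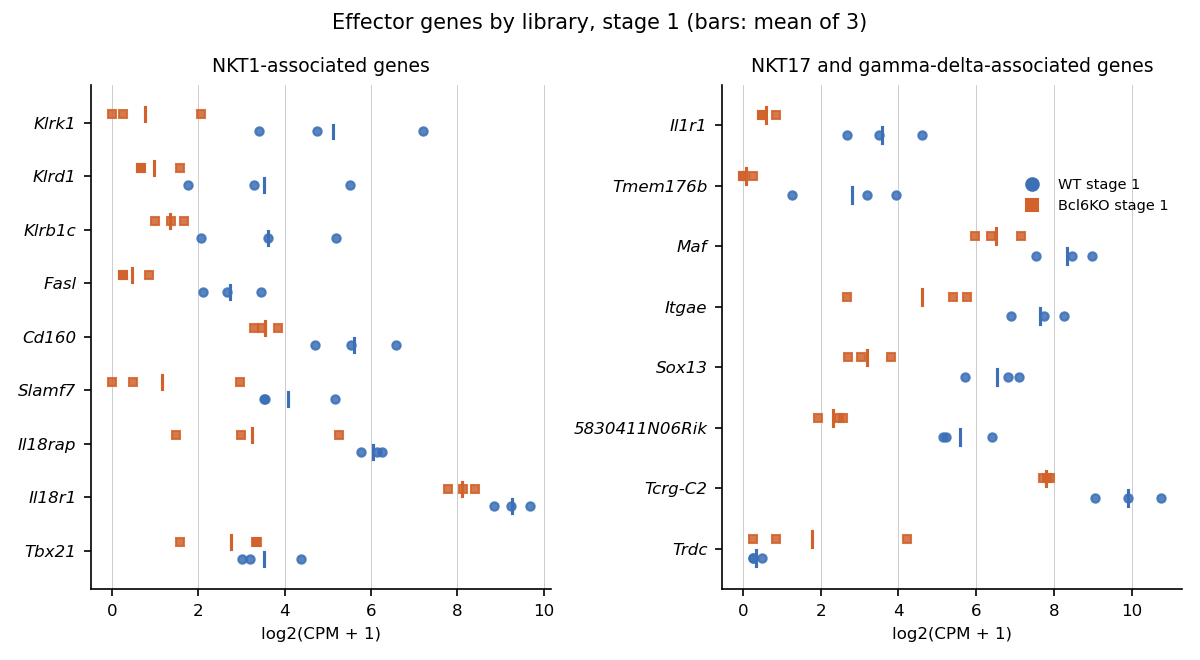
Levels as log2(CPM + 1) of NKT1-associated genes (left) and NKT17- and gamma-delta-associated genes (right) in the 3 WT (blue circles) and 3 Bcl6KO (orange squares) stage 1 libraries, with a bar at each mean. The Bcl6KO libraries lie below the WT libraries in all rows except Tbx21 and Trdc. Most of the other rows were chosen for this separation or after their values were seen. Further members of the lists, many with overlap, are not drawn.

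NKT2 effector genes showed no common direction (13 tested, 2 higher and 2 lower without overlap, 0 called, median -0.06). The shares over all tested genes were 5.87% higher and 7.44% lower. Icos, an inducible costimulatory receptor, was at 1539, 1736 and 1778 CPM in WT and at 1073, 1007 and 1117 CPM in Bcl6KO (-0.66, SE 0.32, edgeR adjusted p = 1). Ccr4, a chemokine receptor, was also lower in every Bcl6KO library (-1.01, SE 0.42). Il13, an NKT2 cytokine, was at 52.8, 24.9 and 29.9 CPM in WT against 87.8, 53.9 and 67.7 CPM (0.96, SE 1.11). Library totals alone as the scaling left 0 members of the list higher. Gata3 (0.40) and Il17rb (-0.48) overlapped.

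Genes that BCL6 is known to repress had no common direction. Of 35 listed 30 were tested, and the median was 0.11. EdgeR called 0 of them and DESeq2 called Bcl2 (adjusted p = 0.0152). Without overlap 6 were higher (20%, beside 5.87% of all tested genes) and 4 lower (13.3%, beside 7.44%). Bcl2 and Ccr7, a lymph node homing receptor (1.45, SE 0.54, edgeR adjusted p = 1), were among the higher ones, with Klf2 (1.74), S1pr1 (0.62), Cd69 (1.5) and Chek1 (0.48). Runx3, a factor of cytotoxic lineages, was at 60.8, 142 and 106 CPM in WT and at 24.6, 22.7 and 23.2 CPM in Bcl6KO (-2.13, SE 1.06, adjusted p = 1). Il2ra (-2.31), Rora and Cish (-0.58) were the other lower ones. Prdm1, a classical BCL6 target that encodes BLIMP1, was too low to test, at 0.996, 3.75 and 1.85 CPM in WT and 0.993, 0.795 and 0 CPM in Bcl6KO. Cdkn1a, the cell cycle inhibitor p21, had 0 counts in all WT libraries and 27, 10 and 15 in Bcl6KO. Against the floor of 3 counts per library it was at least 5.73-fold higher, and it did not pass the filter on low counts. Klf2, S1pr1, Cd69, Chek1, Prdm1 and Cdkn1a were picked after their values were seen, as were Trdc, Sox13, Tbx21, Gata3, Il17rb, Ctsw, Blk, Rora, Trav11 and Il17a.

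For the lists in this paragraph, the shares over all tested genes were 5.87% higher and 7.44% lower without overlap. The corepressor list (19 tested) held 1 gene higher, Bcl6 itself, and 1 lower, Mta3 (-0.60), and Ncor1 overlapped (0.06). Early iNKT transcription regulators (34 tested, median 0.04) held 3 higher, Bach2, Lef1 and Runx1 (0.87), and 1 lower, Elf4 (-0.26). Tfh-associated genes (21 tested, median 0.05) held 5 higher and 2 lower. The higher ones were Tnfsf8, Lef1, Slamf6 (0.52), Il21r (0.92) and the cytokine gene Il21, named after its values were seen, which was at 29.9, 22.7 and 34.3 CPM in WT and at 49.1, 214 and 108 CPM in Bcl6KO (2.10, SE 0.96, edgeR adjusted p = 1). The lower ones were Icos and Maf. Double-positive thymocyte genes (24 tested, median 0.22) likewise held 2 higher, Arpp21 and Ptcra (0.53), and 2 lower. Tdrd5 and Rag1, a recombinase gene of that stage, were the lower ones, the latter at 4.38, 4.74 and 0.205 CPM in WT against 0.199, 0.199 and 0 CPM. Cd8a, a coreceptor chain, was at 0.797, 1.38 and 0 CPM in WT and at 3.38, 0.994 and 3.19 CPM in Bcl6KO (1.75, SE 0.87). The other coreceptor gene Cd4 (0.95) and the TCR signalling gene Themis (1.28) also had positive values with overlap. The members of this list thus differed in direction, and those named from Cd8a on were picked after their values were seen.

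Cell cycle genes leaned higher in Bcl6KO. Of 48 tested members 40 had a positive log2 fold change, and the median was 0.63. Without overlap 10 were higher (20.8%, beside 5.87% of all tested genes) and 0 lower, and 0 were called. Kif11, a spindle motor gene, was at 143, 62.8 and 132 CPM in WT and at 212, 302 and 225 CPM in Bcl6KO (1.13, SE 0.39, edgeR adjusted p = 1). Top2a, a topoisomerase of dividing cells, was at 316, 169 and 309.7 CPM against 427, 524 and 578 CPM (0.94, SE 0.34). Mki67, the proliferation marker Ki-67, overlapped at 1166, 442 and 1302 CPM against 1294, 3177 and 2353 CPM. The low WT value was that of library 2 for all 3 genes, and the list's median was 0.43 without it.

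Cytosolic ribosomal protein genes leaned lower. Of 83 tested members 78 had a negative log2 fold change, and the median was -0.46. Without overlap 25 were lower (30.1%, beside 7.44% of all tested genes) and 0 higher, and 0 were called. With library totals alone as the scaling 18 were lower without overlap. Rpl4 was at 879, 1395 and 1134 CPM in WT and at 754, 660.3 and 588 CPM in Bcl6KO (SE 0.22, edgeR adjusted p = 1). Rpsa, of the small subunit, was at 602, 628 and 532 CPM against 421, 419 and 310.1 CPM (-0.62, SE 0.24). Copies and pseudogenes of these genes may share reads. MHC class I presentation genes (24 tested, median -0.17) held 4 lower without overlap (16.7%, beside 7.44% of all tested genes) and 0 higher. H2-Q7 was at 221, 929.5 and 358 CPM in WT and 153, 159 and 58.5 CPM in Bcl6KO (-2.03, SE 1.39, and -1.24 without WT library 2). H2-Q6 and H2-Q7 are near-identical, so their reads may be split.

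Other lists held members in both directions. Beside their counts, 5.87% of all tested genes were higher and 7.44% lower without overlap. In the BCL2 family (14 tested, 1 higher and 3 lower without overlap, median 0.02) Bcl2 was higher, while the closely related survival genes Bcl2a1a (-2.15, SE 1.28), Bcl2a1b (-1.69) and Bcl2a1d (-2.17) were lower and may share reads with each other. Cytotoxic and NK receptor genes (19 tested, 2 higher, 6 lower, median -0.51) included Klrk1 and Fasl among the lower ones and Fcer1g, an adaptor of activating receptors, among the higher ones. Egress and quiescence genes (30 tested) held 5 higher, such as Dgka, a diacylglycerol kinase gene (0.78, SE 0.28, edgeR adjusted p = 1), and 5 lower, such as Tob1 (-0.91), an antiproliferative gene. TCR-induced and post-selection genes (30 tested, median 0.11) held 3 higher and 4 lower, with Nr4a3, an early response factor, at 6.18, 3.55 and 8.61 CPM in WT and 11.3, 82.5 and 16 CPM in Bcl6KO (2.58, SE 0.82, adjusted p = 1). The high value was that of Bcl6KO library 2, without which the log2 fold change was 1.15. Interferon-stimulated genes (45 tested) held 3 higher and 6 lower. No member of any list was called by edgeR. DESeq2 called the list members Arpp21, Itm2a, Bach2, Tnfsf8, Cd2, Bcl2, Bcl6 and Ikzf3, and voom called Bach2.

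**Figure D4:**
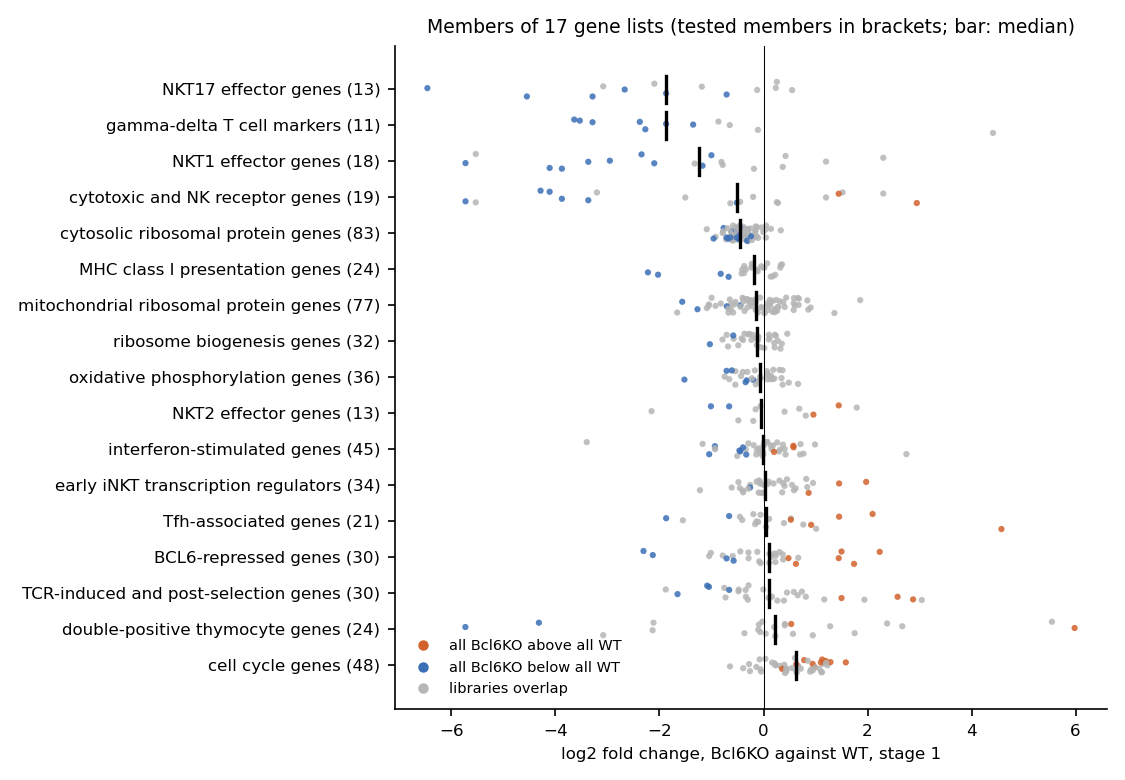
Log2 fold change of Bcl6KO against WT at stage 1 for the tested members of 17 gene lists, with the median as a black bar. Orange and blue points are members whose libraries did not overlap. The medians of the NKT17, gamma-delta and NKT1 lists are -1.87, -1.87 and -1.25, that of the cell cycle list is 0.63, and the others lie nearer 0.

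Some defining genes of other cell types that a sort could hold were at 0, and others were not. Of 15 B cell markers Ms4a1 and Iglc1 had 0 counts in all 6 libraries. The list summed to 122 to 189.5 CPM in WT and 65.8 to 137 CPM in Bcl6KO, with Ighm the highest member. The members went in both directions. Of 10 tested 6 had a positive log2 fold change, as had 8021 of all 15704 tested genes. The list's median was 0.45 and kept its sign in 18 of 23 alternatives, with -0.266 for stage 1 libraries alone. Without overlap 2 members were higher, beside 5.87% of all tested genes, and 0 lower, beside 7.44%. Fcer2a, among the higher ones, was at 17.5, 20.7 and 18.9 CPM in WT and 22.8, 22.1 and 26.8 CPM in Bcl6KO. Of 21 myeloid markers 6, including Itgax and Cd14, had 0 counts in all 6 libraries. Among 8 tested members 5 had a positive and 3 a negative log2 fold change. Without overlap 2 were higher, beside 5.87% of all tested genes, and 0 lower. Xcr1, a chemokine receptor gene of dendritic cells and the highest member, was at 44.4, 47.4 and 60.7 CPM in WT and at 61.4, 74.5 and 126 CPM in Bcl6KO, above WT in every library. Lyz2, a myeloid lysozyme gene, was likewise higher in every Bcl6KO library, at 5.76, 14.9 and 19.6 CPM against 0.598, 1.97 and 3.49 CPM, and the list's summed level was 75.2 to 147 CPM in WT and 105 to 231 CPM in Bcl6KO. Fcer1g, of the cytotoxic and NK receptor list, was higher too (2.95, SE 1.72). Stromal and epithelial markers, 7 of 17 at 0 in all 6 libraries, summed to 138 to 148 CPM in WT and 157 to 206 CPM in Bcl6KO, with the endothelial gene Pecam1 the highest. The part of such cells in the differences above was not tested.

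The 6 libraries held 4129919 to 5068860 counts and 19181 to 22028 detected genes, and library 2 of Bcl6KO stood apart on the first principal component (36.5% of the variance) and library 3 of Bcl6KO on the second (23.3%). Library 2 had the lowest mean Spearman correlation with the others (0.828, against 0.855 to 0.894). Xist, the RNA of the inactive X chromosome, was at 6448, 6312 and 7072 CPM in WT and at 4645, 133 and 5081 CPM in Bcl6KO. The Y-linked gene Ddx3y was at 13.2, 21.9 and 18.7 CPM against 52.4, 45.1 and 52.5 CPM. These sex-linked RNAs moved with genotype, and the part of the sex of the pooled mice in the differences was not tested. Sp100 took 0.03% to 0.94% of counts in WT and 0.03% to 3.77% in Bcl6KO. In the stage 0 libraries, which enter the same fit, it took 5.0%, 0.03% and 4.9% in WT and 10.8%, 23.9% and 17.9% in Bcl6KO. Bcl6KO stage 0 library 2 held 14860 detected genes and had a TMM factor of 0.66.

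At stage 0 the libraries of the genotypes overlapped for Arpp21, Itm2a, Bach2, Tnfsf8, Cd2, Bcl2 and Lef1. Arpp21 was at 97.8, 267 and 387 CPM in WT stage 0 and at 324, 407 and 79.5 CPM in Bcl6KO stage 0, above every stage 1 library of either genotype. Cd2 was at 338, 198 and 309 CPM and at 334, 239 and 331 CPM. In Bcl6KO stage 1 both genes lay below stage 0 and above WT stage 1. Igfbp4 was at 19.7, 18.5 and 23 CPM in WT stage 0 and at 248, 249 and 277 CPM in Bcl6KO stage 0. Its difference was thus present at both stages (stage 0 log2 fold change 3.66, SE 0.52, edgeR adjusted p = 0.0409). Bcl6, Tns4 and Ptgfrn were likewise higher in every Bcl6KO library at stage 0. There Tns4 was at 14.5, 8.27 and 13.6 CPM in WT and at 119, 26.5 and 24.2 CPM in Bcl6KO. Ptgfrn was at 23.9, 29.9 and 51.0 CPM against 59.9, 75.6 and 77.4 CPM. Ikzf3 was at 783 to 1133 CPM in WT stage 0 and 934 to 1949.6 CPM in Bcl6KO stage 0. The list medians at stage 0 were -5.08 (gamma-delta), -1.96 (NKT1), -0.96 (NKT17), 1.06 (cell cycle) and -0.09 (cytosolic ribosomal). All had their stage 1 sign, though the ribosomal value was small, so none of these shifts is shown to be particular to stage 1. Mki67 was at 441, 346 and 338 CPM in WT stage 0 and at 1491, 2250 and 1794 CPM in Bcl6KO stage 0. In WT stage 0 Klrk1 was at 0.199, 45.1 and 0.394 CPM, high in library 2 only.

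Whether the genotype effect differed between the stages was tested in the same fit. Such a difference was called for 0 genes (edgeR, lowest adjusted p = 0.483), with 1221 at an unadjusted p under 0.05, and by DESeq2 for 130. The estimates were 5.87 (SE 1.12) for Arpp21, 4.78 (SE 1.01) for Tnfsf8, 2.28 (SE 0.57) for Cd2, 1.61 (SE 0.43) for Bach2 and -2.11 (SE 0.47) for Ikzf3, each with an edgeR adjusted p between 0.483 and 0.499. With the replicate number as a block within each genotype, added after the data were seen, 0 genes were called, and these 5 estimates were 5.75, 4.64, 2.35, 1.54 and -2.02. None of these differences is therefore shown to be particular to stage 1.

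**Figure D5:**
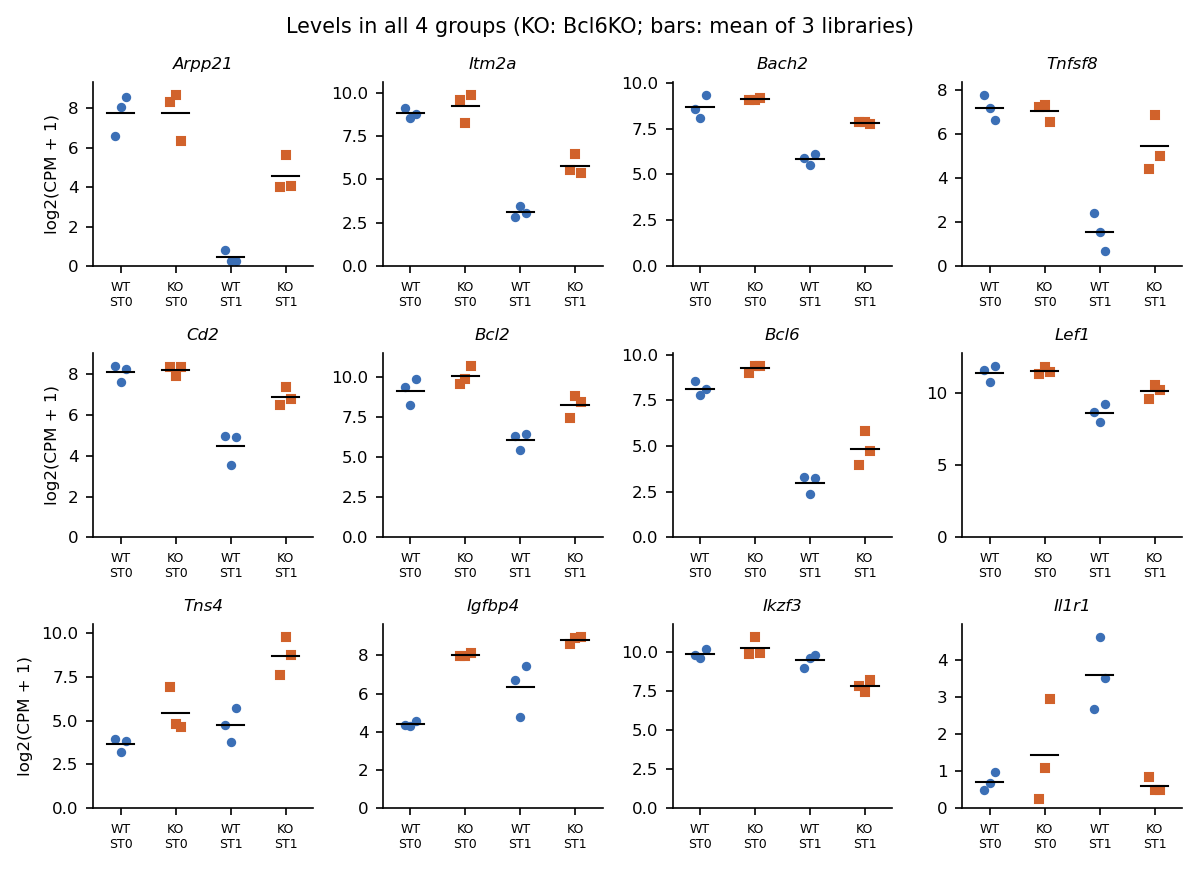
Levels as log2(CPM + 1) of 12 genes in the 3 libraries of each group, WT (blue circles) and Bcl6KO (orange squares) at stage 0 (ST0) and stage 1 (ST1), with a bar at each mean. Arpp21, Itm2a, Bach2, Tnfsf8, Cd2, Bcl2, Bcl6 and Lef1 have their highest means at stage 0 and their lowest in WT stage 1, with Bcl6KO stage 1 between. Bcl6, Igfbp4 and Tns4 are higher in every Bcl6KO library at both stages.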

How the data were processed

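RNA was measured in 12 libraries of sorted thymic iNKT cells, 4 groups of 3, grouped by genotype and stage as their titles give them. Per the labels, RNA was taken up with a QIAGEN kit and libraries were made with a NuGEN kit for very low inputs. The deposited values are raw counts per Ensembl gene, 1 file per library, for 48672 IDs. Per the submitters' processing notes, the tools were bcl2fastq, TopHat2, Bowtie2 and DESeq, on mm10. No source used here names the tool versions, counter, gene models or strandedness, and overlapping genes may share reads. Of the IDs 48312 matched a symbol of the GENCODE annotation of the same build, and unmatched IDs held 0.195% to 0.366% of a library. Besides the genes noted in the text, more than 5% of exonic bases were shared with another gene for Bach2, Bcl2, Rpl4, Zfp703, Klrb1c, Slamf7, Maf, Cish, Il21, Trdc, Gata3 and Xist.

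Genes passing edgeR's filterByExpr (15704) were fitted with edgeR 4.0.16 in R 4.3.3, with TMM scaling and robust quasi-likelihood dispersion over all 12 libraries (8 residual degrees of freedom, common biological coefficient of variation 0.835). All groups thus share 1 estimate of the spread. The SE of a log2 fold change was taken as its size over the root of its F statistic. Tests were two-sided, with Benjamini-Hochberg adjustment over all tested genes at 0.05. The procedure was tested on simulated data. The floor for a count of 0 was set at 3 counts, about 0.6 CPM per library, and covers counting error only, since the libraries carry no molecular identifiers. Whether the replicates were separate pools of mice is not stated in the labels, so p-values reflect only how much these libraries vary, which may be partly technical. No pair of stage 1 libraries of a group agreed within sampling noise (chi-square per gene 27.6 to 59.9).

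The comparison, the genes and the lists were chosen with earlier results of these data known. Named genes are Bcl6, Zbtb16, Cd24a and Cd44. The 12 genes with the lowest p in each direction follow, provided the higher group reached 10 CPM and the libraries did not overlap. Predicted models, pseudogenes, receptor segments, mitochondrial and sex-linked genes were left out of these 12. Itm2a, on the X chromosome, was named through its list and then counted among the leading genes. For the promoter search and the distances between genes Zbtb16, Cd24a and Cd44, whose libraries overlapped, were counted with them. For each list the member with the highest level and up to 2 members per direction were added, with at least 5 CPM and no overlap. Lists are described by counts and medians, with no test. Alternatives were other scalings, filters and tools (limma 3.58.1, DESeq2 1.42.0), the replicate number as a block, stage 1 libraries alone, and leaving out each library. Some list members are not reported here.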

Additional observations from a re-analysis of the deposited data

How the results depend on the processing

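The count of 0 genes at stage 1 held under 19 of 23 alternatives. It became 11 with any gene of at least 1 count kept, 20 by DESeq2 and 5 by limma's voom with sample quality weights. Leaving out each library in turn gave 0 to 1, the 1 being Itm2a without Bcl6KO stage 0 library 2. For the difference between the stages' genotype effects, 7 genes were called without the filter and 130 by DESeq2, and 0 to 0 when each library was left out. Of 110 tested named genes 13 passed in at least 1 alternative, and 3 changed sign in any. Most of them were chosen for libraries without overlap, so leaving out 1 library could hardly change their sign. With each library left out, Cd44 ranged from -0.35 (without WT stage 1 library 2; -0.11 and -0.10 without Bcl6KO stage 1 library 1 or 3) to 0.85, Irf4 from -0.54 to 0.012 and Dntt from -4.81 to 0.33, both highest without WT stage 1 library 1. With all libraries Irf4 and Dntt stood at -0.29 and -2.13. The medians of the NKT1, NKT17, gamma-delta, cell cycle and cytosolic ribosomal lists kept their sign in all 23, with ranges of -2.43 to -1.05, -2.28 to -1.27, -2.28 to -1.51, 0.43 to 0.75 and -0.62 to -0.35. In a count added after the data were seen, without Bcl6KO stage 1 library 2 the lower members without overlap numbered 10 (NKT1), 6 (NKT17) and 7 (gamma-delta), beside 12.2% of all tested genes, and 16 cell cycle genes were higher, beside 11%. The median of all genes moved to 0.46 for the difference between stages with library totals alone. With the replicate block 0 genes were called at stage 1 (350 at an unadjusted p under 0.05). The correlations of same-numbered libraries were 0.08, -0.08 and 0.10, and not every library correlated best with its own number, so these numbers were not taken to pair the genotypes. Within a genotype, stage 0 and stage 1 libraries of the same number had correlations of 0.00071 to 0.12, positive in 6 of 6 pairs, and Xist was low in both Bcl6KO libraries numbered 2 (402 CPM at stage 0 and 133 CPM at stage 1). The labels do not say whether a number marks 1 pool. With the number as a block within genotype, an alternative added after the data were seen, 0 genes were called for the difference between the stages (755 at an unadjusted p under 0.05). Leaving out 1 library moved the fold of 41 of 110 named genes by over 1.5 times. Values under about 0.6 CPM lie below the 3-count floor.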

Other observations

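Some of the 28 genes, the leading ones together with Zbtb16, Cd24a and Cd44, lay near each other in the genome. This was noticed after their values were seen. Igfbp4 and Tns4, both higher in every Bcl6KO library at stage 1, are 11285 bases apart on chromosome 11 with 0 tested genes between them. Ptgfrn and Cd2, also both higher, are 165620 bases apart on chromosome 3, again with 0 tested genes between them. Ikzf3, which was lower, lies 495212 bases from Igfbp4, with 16 tested genes between them. Reads that run past a gene's end were not counted here, so no value bears on transcription between the pairs.

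A few genes that did not pass the filter on low counts were present in some Bcl6KO libraries and nearly absent from WT. Kit, a growth factor receptor of progenitors, had 1 count in each WT stage 1 library and 88, 1 and 80 counts in Bcl6KO. Il17f had 1, 0 and 0 counts in WT and 41, 0 and 1 in Bcl6KO, and Ifng had 1, 5 and 1 in WT and 7, 0 and 56 in Bcl6KO. Each of these was high in 1 or 2 libraries and low in the rest of its group. In the other direction, Klre1 had 0, 12 and 9 counts in WT and 0 in all Bcl6KO libraries, and Aqp3 had 6, 38 and 9 counts in WT and 0 in Bcl6KO. These genes were picked after their values were seen and were not tested.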
